A study of Arabidopsis thaliana with 12 samples.

Results

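On the arms of the Arabidopsis chromosomes, small RNA windows that adjoin another listed window form short runs, and 607 such windows in 301 runs are described here. A window was a member when it was listed in both deposited tables, started on an arm, and had a directly adjoining 500 bp window listed in either table. The members were 14.4% of the 4213 windows in both tables and 48.9% of the 1242 such windows on the arms, and the other 635 arm windows stood alone. A run of 2 windows was the usual form, with 196 runs and 329 members. A further 79 runs had 3 windows, 19 had 4, 5 had 5, 1 had 6 and 1 had 7, and the longest spanned 3500 bp. Edge windows have a listed neighbour on 1 side (495 members), and inside windows have one on both sides (112 members). Of the 743 windows in these runs, 90 were listed only in the table of repeat 1 and 46 only in that of repeat 2, so 74 runs held 1 member and 227 held at least 2.

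The study sequenced small RNAs from seedlings to ask what the PEAT complexes do to them, beside known mutants of the same silencing pathway. The 12 libraries came from 6 genotypes with 2 repeats each: arid2-/-arid3-/-arid4-/-, epcr1-/-epcr2-/-, nrpd1-/-, nrpe1-/-, hda6-/- and wild type, called arid2/3/4, epcr1/2, nrpd1, nrpe1, hda6 and WT below. All seedlings were 10 days old and grew on plates at 22 °C in days of 16 h light and 8 h dark, and RNA came from 1 g of material. Allele names are not given. Nothing in the labels says that the 2 repeats of a genotype were grown separately. P-values therefore reflect the spread between these libraries, possibly a technical one. For single windows that spread was taken from a trend over all windows. In whole seedlings, fewer cells holding a small RNA and less of it per cell cannot be told apart.

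In plants, RNA polymerase IV, whose largest subunit is NRPD1, makes transcripts that are copied and cut into small interfering RNAs (siRNAs). The siRNAs pair with transcripts of RNA polymerase V, whose largest subunit is NRPE1, and guide DNA methylation, which in turn helps keep Pol IV at the site. HDA6 is a histone deacetylase that helps silence transposons and ribosomal RNA genes, and the ARID and EPCR proteins are subunits of the PEAT complexes, which act in heterochromatin and in this pathway.

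The sequence of the members shows what many of them have in common. Of the 301 runs, 280 shared at least 1 word of 24 bases with another arm run, and the most widely shared word, TTTTTATTAATGTTGATTCAAAAA, occurred on either strand in 72 of the 301 runs. The windows chr1:23214501-23215000, chr5:15042501-15043000 and chr2:14334501-14335000, each the middle of a run of 3, are shown because the inside-minus-edge difference was lowered most in nrpe1 in these runs. The stretches come from RefSeq's TAIR10.1 assembly, plus strand, 200 bases from each window, at chr1:23214539-23214738, chr5:15042692-15042891 and chr2:14334716-14334915. Capitals mark bases in words that also occur in at least 10 other arm runs.
Chr1_23214501: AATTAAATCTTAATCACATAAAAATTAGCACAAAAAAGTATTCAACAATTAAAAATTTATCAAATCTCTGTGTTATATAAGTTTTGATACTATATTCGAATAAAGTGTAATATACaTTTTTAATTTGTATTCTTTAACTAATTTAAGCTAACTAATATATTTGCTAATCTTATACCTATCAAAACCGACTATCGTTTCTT
Chr5_15042501: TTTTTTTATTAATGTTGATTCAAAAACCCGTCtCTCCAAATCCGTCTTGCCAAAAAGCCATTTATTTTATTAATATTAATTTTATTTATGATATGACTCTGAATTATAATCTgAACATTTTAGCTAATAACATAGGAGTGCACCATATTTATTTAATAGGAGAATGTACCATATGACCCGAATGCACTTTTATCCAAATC
Chr2_14334501: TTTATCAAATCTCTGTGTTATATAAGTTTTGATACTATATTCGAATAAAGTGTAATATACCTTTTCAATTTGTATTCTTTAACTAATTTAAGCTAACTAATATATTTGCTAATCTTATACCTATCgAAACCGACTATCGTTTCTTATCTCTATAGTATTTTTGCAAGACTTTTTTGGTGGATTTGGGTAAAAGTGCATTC
Nearly all of these bases are capitals (199, 198 and 199 of 200), although the windows lie on 3 chromosomes. The chromosome 1 and chromosome 2 windows shared 171 words, and the chromosome 5 window shared 70 with that of chromosome 1 and 32 with that of chromosome 2.

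A second kind of sequence repeats within its own run. The window chr3:7922001-7922500, with the highest wild-type score of all members, is shown for this, from chr3:7922001-7922200. Capitals here mark bases in words that occur more than once in the same run.
Chr3_7922001: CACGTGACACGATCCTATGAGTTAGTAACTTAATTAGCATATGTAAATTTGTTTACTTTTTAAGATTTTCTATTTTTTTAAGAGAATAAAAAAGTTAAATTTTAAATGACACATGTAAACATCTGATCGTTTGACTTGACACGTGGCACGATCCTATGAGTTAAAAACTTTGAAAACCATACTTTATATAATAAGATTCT
Repeated words covered 456 of the 500 bases of this window, and the commonest spacing between successive copies in its run was 269 bp.

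Some windows hold neither kind of sequence. The windows chr2:1501-2000, which had the largest increase in hda6, and chr2:6974501-6975000, in the longest run, are shown from chr2:1501-1700 and chr2:6974501-6974700, with capitals used as for the first set.
Chr2_1501: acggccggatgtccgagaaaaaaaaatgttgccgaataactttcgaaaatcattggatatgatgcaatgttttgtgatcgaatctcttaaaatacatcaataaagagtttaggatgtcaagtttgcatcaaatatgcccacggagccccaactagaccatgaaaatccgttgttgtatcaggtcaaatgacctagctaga
Chr2_6974501: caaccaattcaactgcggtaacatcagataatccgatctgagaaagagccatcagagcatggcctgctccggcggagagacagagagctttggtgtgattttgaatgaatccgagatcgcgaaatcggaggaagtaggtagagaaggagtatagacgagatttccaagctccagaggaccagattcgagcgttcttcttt
No base of either stretch is a capital, and neither window held a word of any other arm run.

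The deposited values are whole-number scores, treated as normalized small RNA abundances whose scaling is not stated by the sources used here, so read depth is unknown. Wild type scored at least 96 in every member, and the ratio of nrpd1 to wild type never passed 0.197 in repeat 1 and 0.104 in repeat 2. The listed windows thus appear to have been chosen on wild type and nrpd1, and being listed next to another window also depends on those scores. The median member scored 2 and 0 in the nrpd1 libraries, against 245 and 199 in wild type, in the order repeat 1 and repeat 2 used throughout. That contrast is a description with no test, and it does not check the nrpd1 label independently. Small RNA windows do not measure the mutated genes, so no label was checked through its target.

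Loss was deepest in nrpe1 after nrpd1. The median member scored 65 and 38 in nrpe1, against 245 and 199 in WT. Each member kept a median of 23.8% and 16.1% of its wild-type score in the same repeat. By limma's test on log2(score + 89), with Benjamini-Hochberg adjustment over all 4213 windows and a threshold of 0.05, 551 members fell (90.8%) and 1 rose. Over all windows 44.3% fell and 1.02% rose. Of the arm windows that stood alone 94.2% fell and 0.0% rose, and they kept medians of 10.8% and 8.33% of wild type. The fall was thus not particular to runs. The added 89 understates changes of low windows, and the median fitted log2 change was -1.17 in members and -0.09 over all windows. Members with a median of 1 genome copy per word kept less, with medians of 9.56% and 7.66% of wild type.

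In hda6 the median member scored 156 and 151, against 245 and 199 in WT, which left a median of 56.9% and 70.8% of wild type. By the same test 428 members fell (70.5%) and 14 rose, beside 46.4% and 25.2% of all windows. Of the arm windows that stood alone 78.7% fell and 0.787% rose in hda6. The median fitted log2 change was -0.45 in members and -0.33 over all windows. The share that fell dropped to 35.6% without hda6 repeat 1, 41.0% without hda6 repeat 2 and 40.9% without WT repeat 1. The share that rose, 2.31%, was 0.988% without WT repeat 2.

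In arid2/3/4 the median member scored 153 and 163, against 245 and 199 in WT. The members kept a median of 58.7% and 76.8% of wild type, and 338 fell (55.7%) while 24 rose. Over all windows 28.9% fell and 38.7% rose, with a median fitted log2 change of -0.01 beside -0.37 in members. Without arid2/3/4 repeat 1 the share of members that fell was 35.7%.

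In epcr1/2 the median member scored 180 and 208, against 245 and 199 in WT, so the repeats differed in direction at the median. The members kept a median of 72.5% and 98.7% of wild type, and 116 fell (19.1%) while 30 rose (4.94%). Over all windows 14.8% fell and 52.2% rose, with a median fitted log2 change of 0.48 beside -0.19 in members. Without epcr1/2 repeat 1 the share that fell was 9.56%, and the share that rose was 2.97% without epcr1/2 repeat 2 and 2.80% without WT repeat 2.

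The counts in both PEAT mutants rest on how libraries are scaled against each other. When the libraries of each table other than nrpd1 were scaled to a common median, 93.1% of members fell in arid2/3/4 and 94.1% in epcr1/2, and with quantile normalization 73.5% and 71.8% fell. The median over all windows itself moved, to -0.30 in arid2/3/4 and -0.05 in epcr1/2 after median scaling, and to -0.10 and 0.14 after quantile normalization. Relative to the median of all windows the members' median was lower under each of the 3 scalings. That difference was -0.36, -0.34 and -0.48 in arid2/3/4, -0.68, -0.65 and -0.80 in epcr1/2, -1.08, -1.28 and -1.02 in nrpe1, and -0.12, -0.13 and -0.25 in hda6, for the deposited scores, median scaling and quantile normalization. The comparisons with wild type share its 2 libraries.

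**Figure D1:**
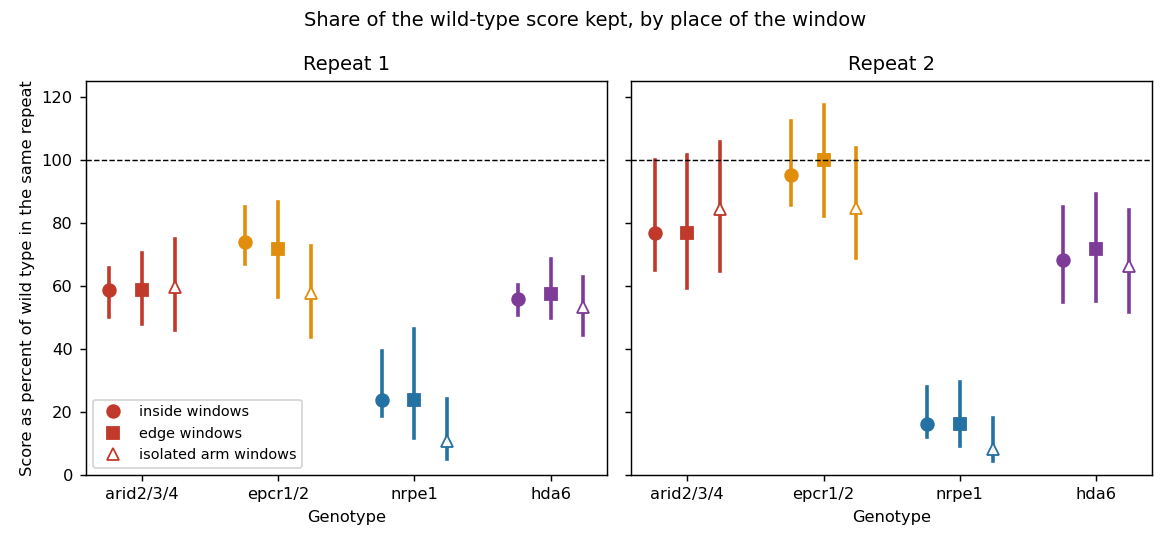
Score of each window as a percent of the wild-type score in the same repeat (y axis), by mutant (x axis), for inside windows (filled circles), edge windows (filled squares) and arm windows that stand alone (open triangles). Points are medians over windows and bars run between the quartiles, and the dashed line marks wild type; members kept a median of 23.8% in repeat 1 and 16.1% in repeat 2 in nrpe1, the lowest of the 4 mutants plotted.

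Set directly against epcr1/2, arid2/3/4 scored lower in 163 members (26.9%) and higher in 24 (3.95%), beside 23.6% and 6.84% of all windows, but with median scaling 89 were lower and 164 higher, and with quantile normalization 32 and 74. The median fitted log2 difference was -0.21 on the deposited scores and 0.00 and 0.01 under the other scalings. The lower count fell to 6.92% without arid2/3/4 repeat 1 and to 3.95% without epcr1/2 repeat 2. The higher count fell to 0.988% without arid2/3/4 repeat 2 and to 1.15% without epcr1/2 repeat 1.

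The median score of inside windows was above that of edge windows in each of the 12 libraries. Inside and edge medians were 173 and 148 in repeat 1 of arid2/3/4 and 72 and 62 in repeat 1 of nrpe1, against 280.5 and 233 in repeat 1 of WT. In repeat 2 they were 194.5 and 156 in arid2/3/4 and 45.5 and 36 in nrpe1, against 256.5 and 186 in WT. Because listing appears to depend on wild type, these level differences are partly set by the way members were found. The median share of wild type kept was near equal at both places in nrpe1, with 23.7% and 16.1% inside and 23.9% and 16.1% at edges. The lowest values were mostly at edges, where 107 of 495 windows (21.6%) in repeat 1 and 133 (26.9%) in repeat 2 kept under 10%. Inside, 2 of 112 (1.79%) and 13 (11.6%) did so, and over all windows 13.3% and 16.6%. The places differ in copies. Edge windows with a median of 1 copy per word kept under 10% in 53.4% and 57.6%, and only 4 inside windows had 1 copy. With over 10 copies the shares were 5.56% and 8.89% at edges and 0.0% and 9.33% inside.

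Calls by place differed most in epcr1/2 on the deposited scores, where 4 of 112 inside windows fell (3.57%) beside 112 of 495 edge windows (22.6%), yet the median fitted changes were -0.20 and -0.19. With median scaling 92.9% of inside and 94.3% of edge windows fell, and with quantile normalization 74.1% and 71.3%, which turns the order. Single libraries moved the inside share in epcr1/2 to 1.79% without epcr1/2 repeat 1, 9.82% without epcr1/2 repeat 2, 5.36% without WT repeat 1 and 11.6% without WT repeat 2, each time below the edge share. In arid2/3/4 the shares were 57.1% inside and 55.4% at edges, but 23.2% and 38.6% without arid2/3/4 repeat 1, which turns the order, in nrpe1 90.2% and 90.9%, and in hda6 79.5% and 68.5%. Of all windows 14.8% fell in epcr1/2, 28.9% in arid2/3/4, 44.3% in nrpe1 and 46.4% in hda6. Among windows with over 10 copies the epcr1/2 shares on the deposited scores were 2.67% inside and 3.89% at edges. With 1 copy, 42.4% of 118 edge windows and 0 of 4 inside windows fell there. None of these differences between places was tested as a group.

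Length of the run went with the calls in different ways. In arid2/3/4, 42.9% of members in runs of 2 fell, 71.3% in runs of 3, 62.1% in runs of 4 and 88.0% of the 25 members in longer runs. In epcr1/2 the shares were 25.5%, 10.8%, 15.5% and 8.00%, and arm windows standing alone fell in 47.9% there and in 52.4% in arid2/3/4. With median scaling the arid2/3/4 shares were 91.2%, 98.5%, 86.2% and 92.0%, so the lengths stood closer together on that scale, and those of epcr1/2 were 93.9%, 97.4% and 89.7%, with 20 of the 25 members in longer runs lowered. Without epcr1/2 repeat 1 the epcr1/2 shares were 13.4%, 4.10%, 10.3% and 0.0%, and without arid2/3/4 repeat 1 those of arid2/3/4 were 26.7%, 45.6%, 37.9% and 72.0%. In nrpe1 the shares on the deposited scores were 90.0%, 93.8%, 91.4% and 76.0%, and in hda6 64.4%, 83.1%, 63.8% and 68.0%. Arm windows standing alone fell in 94.2% in nrpe1 and in 78.7% in hda6. Over all windows 28.9% fell in arid2/3/4, 14.8% in epcr1/2, 44.3% in nrpe1 and 46.4% in hda6. In epcr1/2 the shares of runs of 3 and 4 thus lay near that of all windows. Differences between lengths were not tested.

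**Figure D2:**
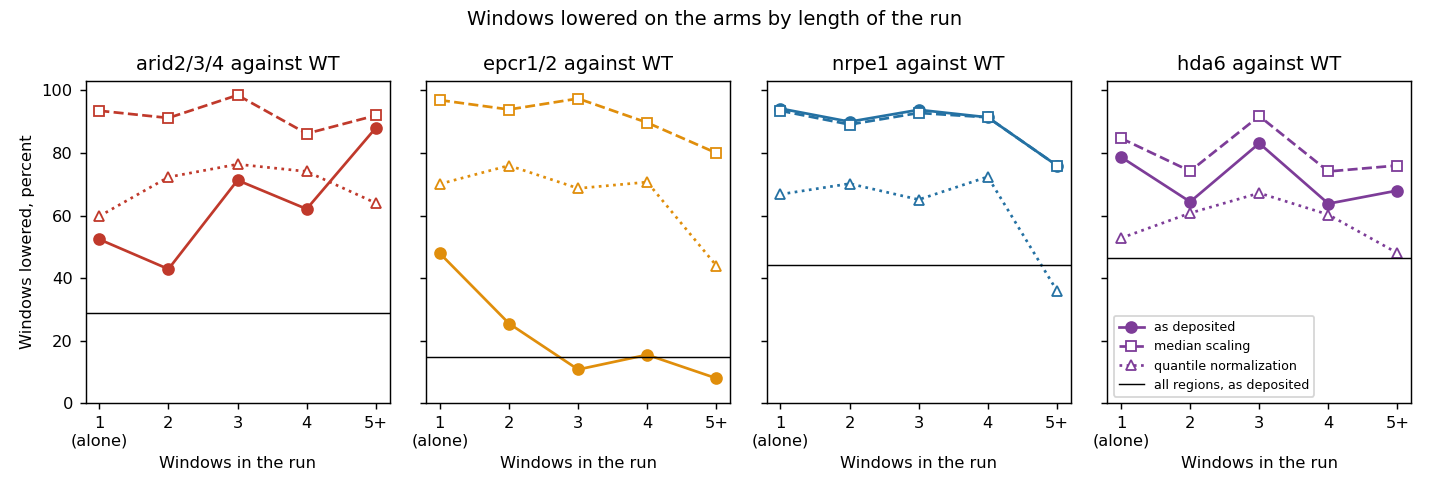
Percent of arm windows called lower than WT (y axis) by the number of windows in the run (x axis, 1 for windows that stand alone), in 4 panels, 1 per mutant. Filled circles use the deposited scores, open squares median scaling and open triangles quantile normalization, and the black line is the percent over all 4213 windows on the deposited scores; in epcr1/2 the deposited scores give 25.5% in runs of 2 and 8.00% in runs of 5 or more.

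Members that carry widely shared sequence fell more often than members with neither shared nor repeated sequence in arid2/3/4, nrpe1 and hda6, though the groups were not tested against each other. At least 100 bases of shared words, as marked in capitals in the first set of sequences, were found in 291 members, of which 237 fell (81.4%) and 0 rose in arid2/3/4 and 259 fell (89.0%) and 0 rose in hda6. Of 248 members with neither shared nor repeated sequence of that length, 70 fell (28.2%) and 21 rose in arid2/3/4, and 133 fell (53.6%) and 13 rose in hda6. Over all windows 28.9% fell in arid2/3/4 and 46.4% in hda6, so the 248 lay near that share in arid2/3/4 and the 291 above it in both. The shares of all windows that rose were 38.7% and 25.2%, above the 8.47% and 5.24% of the 248. In nrpe1 283 of the 291 fell (97.3%) and 211 of the 248 (85.1%), beside 44.3% of all windows. In epcr1/2 the order was the other way, with 37 of the 291 falling (12.7%) and 63 of the 248 (25.4%), beside 14.8% of all windows. With median scaling all 291 and 86.7% of the 248 fell in arid2/3/4, and 99.3% and 87.5% in epcr1/2, so the order in epcr1/2 turned. The 91 members with at least 100 bases repeated in their own run fell in 51.6% in arid2/3/4, 20.9% in epcr1/2, 85.7% in nrpe1 and 61.5% in hda6.

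Windows that share sequence can share reads, so they are not independent, and the sources used here do not state how reads with several matches were treated. The 122 members with a median of 1 copy fell in 41.0% in epcr1/2, those with over 10 copies in 3.53%. In arid2/3/4 the shares were 45.9% and 64.3%, and in nrpe1 94.3% and 90.6%. Of all windows 14.8% fell in epcr1/2, 28.9% in arid2/3/4 and 44.3% in nrpe1. These shares by copies use the deposited scores and were not recomputed under the other scalings. Members held a median of 8 copies per word and 25.2% GC, against a median of 1 copy and 28.6% GC in arm windows that stood alone, and 8 copies and 34.4% GC over all windows. Inside windows were the more repeated and the more AT-rich, with 15 copies and 23.5% GC, beside 6 copies and 26.0% GC at edges. Runs that shared at least 50% of the words of the shorter one were put in a family, and 90 runs made up 22 families, the largest with 9 runs on all 5 chromosomes.

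**Figure D3:**
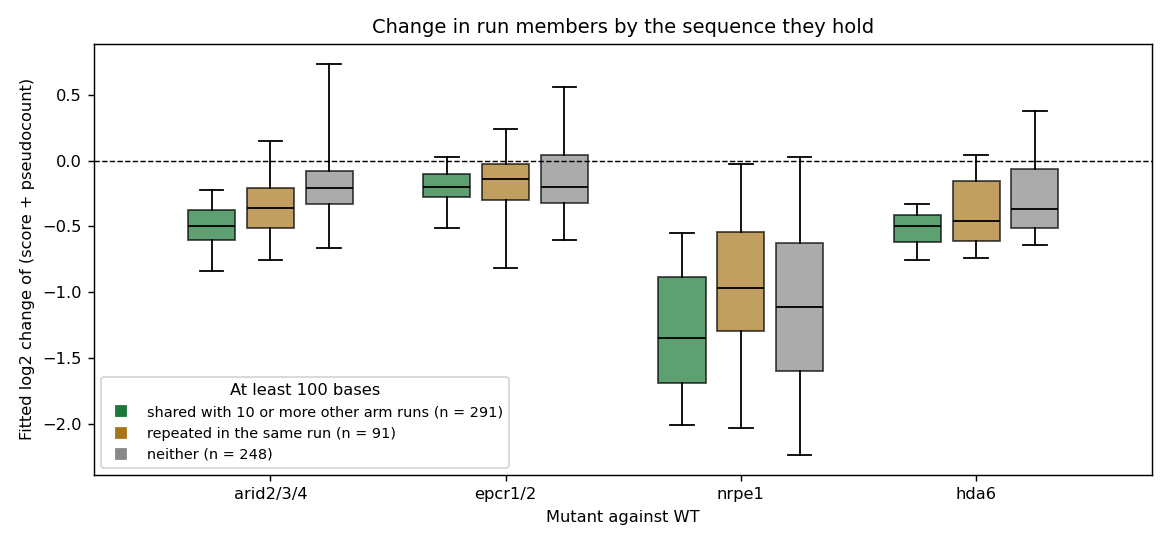
Fitted log2 change of (score + 89) against WT (y axis) in 4 mutants (x axis) for members with at least 100 bases in words found in 10 or more other arm runs (green, n = 291), with at least 100 bases repeated in the same run (brown, n = 91) and with neither (grey, n = 248). Boxes run between the quartiles with the median as a line and whiskers from the 5th to the 95th percentile; the green medians lie at -0.50 in arid2/3/4 and -1.35 in nrpe1, and the grey ones at -0.21 and -1.11.

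Adjoining members changed alike, and more so in some mutants than in others. Over 289 adjoining pairs the correlation of fitted changes (Pearson's r across windows, a description, since both windows of a pair come from the same libraries) was 0.60 in arid2/3/4, 0.46 in epcr1/2, 0.31 in nrpe1 and 0.82 in hda6. A single pair far from the rest, at chr2:1501-2500, weighs on the value for hda6. Its windows also rose most in arid2/3/4 and were among the highest in epcr1/2, so the pair weighs on those values too. Spearman's rho was 0.44, 0.25, 0.24 and 0.58 in the same order. For 630 pairs of successive arm windows that stood alone, a median of 85.75 kb apart, r was 0.10, 0.14, 0.19 and 0.05. Of the 227 runs with at least 2 members, all members fell in 81 runs in arid2/3/4 (35.7%), 14 in epcr1/2 (6.17%), 191 in nrpe1 (84.1%) and 138 in hda6 (60.8%). Over the 790 such runs of the whole genome the shares were 19.4%, 3.29%, 39.6% and 28.9%. The difference between arms and genome was not tested. Members of 1 run were called in opposite directions in 0 runs in arid2/3/4 and hda6, in 1 in nrpe1 (0.441%) and in 4 in epcr1/2 (1.76%). Such runs were also rare over the 790, with 0.127% in arid2/3/4, 1.01% in hda6, 0.253% in nrpe1 and 1.01% in epcr1/2. For the score levels of adjoining members r was 0.36 in arid2/3/4, 0.33 in epcr1/2, 0.47 in nrpe1, 0.35 in hda6 and 0.27 in WT, so in nrpe1 the levels were more alike than the changes.

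**Figure D4:**
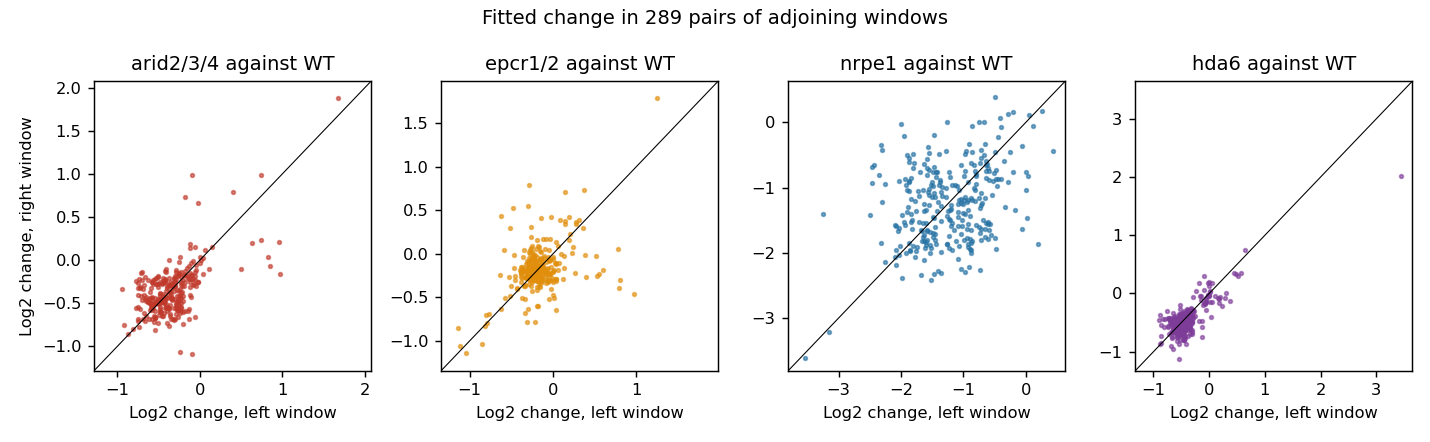
Fitted log2 change against WT of the left window (x axis) and the right window (y axis) of 289 pairs of adjoining members, 1 panel per mutant, with the line of equal change. Points gather along the line in hda6 (r = 0.82) and scatter widely in nrpe1 (r = 0.31).

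In nrpe1 the contrast between inside and edge windows of a run changed in most runs that could be tested. Of 86 arm runs with both places among their members, limma called a change of the inside-minus-edge difference in 59 in nrpe1, with 40 lowered and 19 raised, beside 17.1% lowered and 13.6% raised in the 426 such runs of the whole genome. Scores that fall towards the added 89 draw the places together on this scale. The inside windows were the higher ones in 58 and 63 of the 86 runs in nrpe1, against 55 and 58 in WT. With a pseudocount 10 times smaller 52 runs were called, 31 of them lowered. The counts in the other mutants were 6 in arid2/3/4 (1 lowered, beside 15.7% of all runs, and 5 raised, beside 15.3%), 9 in epcr1/2 (3 lowered, beside 10.3%, and 6 raised, beside 15.0%) and 4 in hda6 (3 lowered, beside 6.57%, and 1 raised, beside 11.7%). Those small counts moved with single libraries, from 3 to 21 in arid2/3/4 (3 without its own repeat 2, 10 without its own repeat 1, 21 without WT repeat 1 and 20 without WT repeat 2). They were 3 in epcr1/2 without its own repeat 2 and 21 without WT repeat 2. In hda6 the count was 0 without either hda6 repeat or without WT repeat 2, and 28 without WT repeat 1. Between arid2/3/4 and epcr1/2 the difference changed in 23 runs, 6 lowered and 17 raised, beside 18.8% and 14.1% of all runs.

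The run at chr5:15042001-15043500 shows the lowered form. Its middle window, printed above, scored 124 and 65 in nrpe1, against 684 and 535 in WT, while the first scored 42 and 32 against 151 and 141, and the last 29 and 20 against 107 and 130. The inside-minus-edge difference changed by -1.05 ± 0.14 on the log2(score + 89) scale in nrpe1 (SE, limma, adjusted p = 0.00032). With a pseudocount 10 times smaller the change was -0.78 ± 0.19 (adjusted p = 0.013), and with none it was -0.60 and -0.62 in the 2 repeats. The runs at chr2:14334001-14335500 and chr1:23214001-23215500, which share words with it, changed by -1.11 ± 0.12 and -1.07 ± 0.14, and by -1.50 and -1.06 with the smaller pseudocount. The raised form is seen at chr5:14846501-14848000, where the edge window scored 20 and 14 in nrpe1, against 698 and 349 in WT, and the inside window 56 and 34, against 133 and 117 in WT. The window with the higher score in WT thus became the lower one in nrpe1, and the difference changed by 1.79 ± 0.18 (adjusted p = 8.8e-05), or by 2.95 ± 0.22 with the smaller pseudocount. Its edge window shares 200 words with chr2:8420501-8421000 and 206 with chr5:19419001-19419500, in runs that changed by 1.54 ± 0.16 and 1.15 ± 0.08.

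In the longest run, the 7 windows at chr2:6972501-6976000, arid2/3/4 and epcr1/2 moved apart. The run crosses the protein-coding genes AT2G16018, AT2G16020 and AT2G16030, and its 4 members have a median of 1 copy per word. In its window chr2:6974501-6975000, in coding sequence of AT2G16030, scores were 122 and 127 in arid2/3/4, 612 and 647 in epcr1/2, 336 and 212 in nrpe1, 288 and 202 in hda6, and 335 and 230 in WT. It fell by 0.78 on the log2 scale in arid2/3/4 (limma, adjusted p = 5.8e-05) and rose by 0.97 in epcr1/2 (adjusted p = 8.2e-07), and the direct test of arid2/3/4 against epcr1/2 gave -1.75 (adjusted p = 3.4e-19). All 4 members fell in arid2/3/4 and 3 rose in epcr1/2. Neither the nrpe1 nor the hda6 comparison passed the test in any of the 4.

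The 5-window run at chr1:19062001-19064500, next to SPP1, which encodes a sucrose phosphatase, had its peak in window 4. There scores were 399 and 373 in arid2/3/4, 490 and 554 in epcr1/2, 134 and 64 in nrpe1, 469 and 421 in hda6, and 745 and 459 in WT. The window fell by 1.87 in nrpe1 (adjusted p = 8.6e-21) and by 0.51 in arid2/3/4 (adjusted p = 0.015). In WT the other 4 windows scored between 110 and 274, below window 4 in both repeats.

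**Figure D5:**
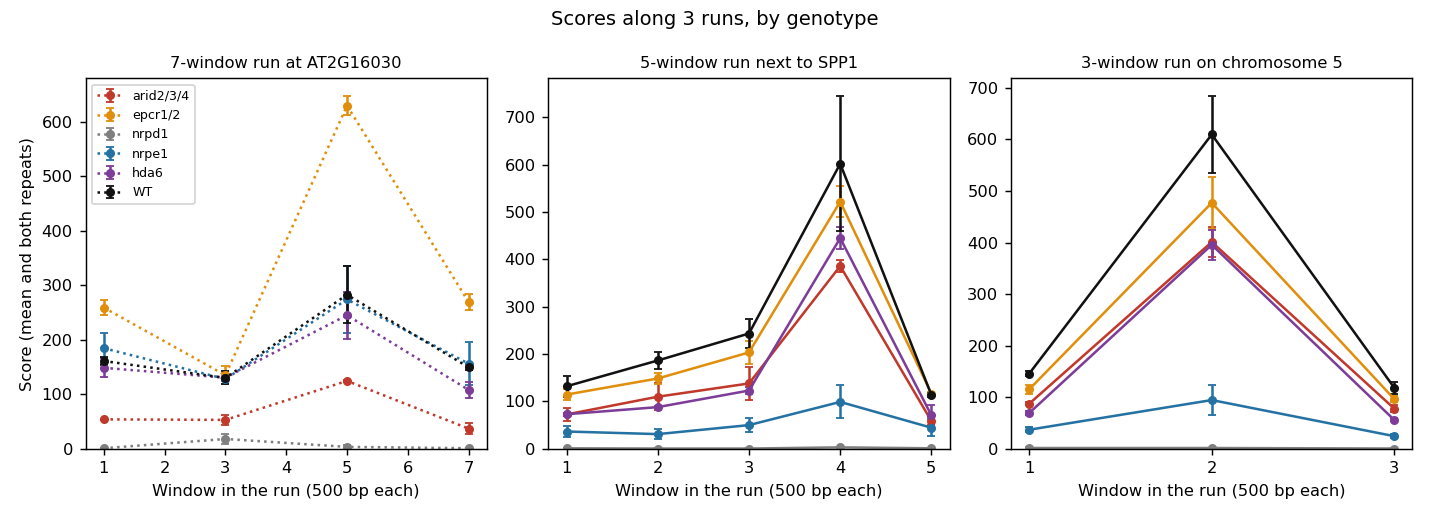
Score (y axis, mean of 2 repeats with a bar to each repeat) by position of the window in its run (x axis, 500 bp windows) for 3 runs and all 6 genotypes. Dotted lines in the first panel join windows 1, 3, 5 and 7, since only these were listed in both tables; epcr1/2 reaches 612 and 647 in window 5 of that run, above both WT values of 335 and 230.

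The 2 members that rose most in hda6 and arid2/3/4, and 2 of the 3 that rose most in epcr1/2, lie at the tip of chromosome 2, near where a nucleolus organizer with ribosomal RNA genes is known to lie. The window chr2:1501-2000, in coding sequence of AT2G01008, scored 1643 and 1212 in arid2/3/4, 1052 and 1005 in epcr1/2, 290 and 206 in nrpe1, 6186 and 4136 in hda6, and 375 and 391 in WT. Both libraries of hda6, arid2/3/4 and epcr1/2 lay above both of WT. It rose by 3.45 on the log2 scale in hda6 (limma, adjusted p = 3.7e-42), by 1.67 in arid2/3/4 (8.6e-11) and by 1.24 in epcr1/2 (1.3e-06). The next window, chr2:2001-2500, scored 1528 and 1431 in arid2/3/4, 1363 and 1398 in epcr1/2, 1888 and 1436 in hda6, and 461 and 242 in WT, and rose by 1.88, 1.78 and 2.02. These windows are GC-rich for members, at 43.2% and 52.8%. Words of the window chr2:1501-2000 have a median of 2 copies in the genome, so part of its score can come from another place. The very small p-values rest on a spread taken from the trend over all windows.

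Some of the other members that rose overlap pseudogenes. Of the 52 members that overlap one, 16 rose (30.8%) and 10 fell (19.2%) in arid2/3/4, beside 38.7% and 28.9% of all windows. In epcr1/2 also 16 rose and 10 fell, beside 52.2% and 14.8%. In hda6 6 rose (11.5%) and 12 fell (23.1%), beside 25.2% and 46.4%, and in nrpe1 0 rose and 33 fell (63.5%), beside 1.02% and 44.3%. The shares that rose were thus below those of all windows in each of the 4 mutants. The 1 kb upstream of protein-coding genes held 9 raised members in arid2/3/4 (4.13%) and 12 in epcr1/2 (5.50%). Of the 218 upstream members, 13 also overlap a pseudogene, so the 2 classes are not separate. The window chr2:11501-12000 in AT2G01022 scored 508 and 476 in arid2/3/4 and 579 and 447 in hda6, against 249 and 149 in WT. It rose by 1.03 and 1.08. The window chr1:18013501-18014000 in AT1G48710 rose by 0.99 in arid2/3/4, with 268 and 310 against 102 and 101 in WT. A total of 3 runs lie in or beside the pseudogene AT5G38705. In its window chr5:15495501-15496000 scores were 370 and 362 in arid2/3/4 and 422 and 357 in hda6, against 194 and 117 in WT, with log2 changes of 0.91 and 0.98. In epcr1/2 the second largest rise, by 1.44 (limma, adjusted p = 3.9e-14), was at chr1:8829501-8830000 in AT1G25175 and AT1G25180, with 527 and 512 against 159 and 113 in WT. That window overlaps a non-coding RNA gene and no pseudogene. The pseudogene AT4G20180 holds chr4:10904001-10904500, which rose by 0.97 in epcr1/2, with 516 and 596 against 314 and 178 in WT.

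The members with the highest scores belong to a group of runs that share sequence. The window chr3:7922001-7922500, downstream of the clock gene TIC, scored 7007 and 8286 in arid2/3/4, 4665 and 5955 in epcr1/2, 36 and 16 in nrpd1, 921 and 511 in nrpe1, 6026 and 6654 in hda6, and 11904 and 7428 in WT. It fell by 3.61 in nrpe1 (adjusted p = 1.8e-23) and by 0.82 in epcr1/2 (adjusted p = 0.031). In arid2/3/4 the change was -0.30 and did not pass (adjusted p = 0.47). Its words recur at chr5:18554001-18554500, downstream of AT5G45730 (47 shared), and at chr4:16055001-16055500 (51 shared), in the immune receptor gene ADR1-L1 and the long non-coding RNA AT4G08785. These scored 246 and 141, and 264 and 153, in nrpe1, against 3123 and 2079, and 3086 and 2055, in WT. The window next to the last, chr4:16055501-16056000, had scores within 5% of it in each arid2/3/4, epcr1/2, hda6 and WT library and shares 121 words with it.

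Members that fell most in arid2/3/4 included 3 distant windows that share sequence. The window chr3:10406001-10406500, in the pseudogene AT3G28005, scored 174 and 227 in arid2/3/4, 239 and 288 in epcr1/2, 52 and 19 in nrpe1, 276 and 310 in hda6, and 575 and 462 in WT. The windows chr3:17202501-17203000 and chr5:393501-394000 scored 182 and 229, and 160 and 187, in arid2/3/4, against 565 and 450, and 492 and 376, in WT. They share 52 and 92 words with the first, and the fitted changes were -1.07, -1.02 and -0.99. The largest fall in arid2/3/4, by 1.08, was at chr5:7057501-7058000, downstream of AT5G03225, with 40 and 56 against 225 and 178 in WT.

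In epcr1/2 the members that fell most were others. The window chr1:77501-78000, in the non-coding RNA AT1G08765, scored 47 and 62 in epcr1/2 and 169 and 209 in arid2/3/4, against 275 and 184 in WT. It fell by 1.14 in epcr1/2 (adjusted p = 2.3e-14), while the change in arid2/3/4 was -0.19 (adjusted p = 0.23), and the direct test of arid2/3/4 against epcr1/2 gave 0.95 (adjusted p = 1.3e-10). At HSD1, which encodes a hydroxysteroid dehydrogenase, chr5:20625001-20625500 scored 63 and 63 in epcr1/2, 1 and 1 in nrpe1 and 97 and 83 in hda6, against 319 and 176 in WT. It fell by 1.11 in epcr1/2, by 1.87 in nrpe1 and by 0.88 in hda6. Its words have a median of 2 copies in the genome, so part of its score can come from another place. The windows chr1:9754501-9755000 and chr1:9755001-9755500, near AT1G27990, fell by 1.04 and 1.14 in epcr1/2.

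The rise in nrpe1 of the single member called there was small. The window chr1:11901001-11901500, which holds the microRNA gene MIR2933a, scored 359 and 232 in nrpe1, against 240 and 151 in WT, a log2 change of 0.43 (adjusted p = 0.033). The call was lost with the smaller pseudocount and without nrpe1 repeat 1 or WT repeat 2.

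Most members lay outside genes. The 1 kb upstream of a protein-coding gene held 218 members, gene bodies 68, microRNA genes 9 and other non-coding RNA genes 14, and 312 lay in none of these classes nor in a pseudogene. In gene bodies 21 of 68 fell (30.9%) and 5 rose in arid2/3/4 and 31 fell (45.6%) and 3 rose in hda6, shares lowered near the 28.9% and 46.4% of all windows. In epcr1/2 22 of the 68 fell (32.4%) and 6 rose, beside 14.8% and 52.2% of all windows, and in nrpe1 55 fell (80.9%) and 0 rose, beside 44.3% and 1.02%. Of the 312 outside all classes, 200 fell in arid2/3/4, 54 in epcr1/2, 297 in nrpe1 and 247 in hda6. The 10 members nearest the arm boundaries had a median wild-type score of 162.75, and the 10 run windows just outside had one of 187.75.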

How the data were processed

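Small RNA libraries of 10-day-old seedlings were grouped by title (for repeat 1 of hda6 the genotype field is spelled otherwise, and the title was followed). Reads were mapped with Bowtie 0.12.2 to TAIR10, per the submitters' processing notes. The deposited tables, 1 per repeat, give each genotype a whole-number score per 500 bp window. Their scaling, read sizes and handling of reads with several matches are not stated by the sources used here, so depth is unknown. File coordinates were changed to count from 1, and annotation and sequence came from RefSeq TAIR10.1.

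Arms lie more than 3 Mb from set centromere positions. Scores were tested with limma 3.58.1 in R 4.3.3 on log2(score + 89), 89 being the 25th percentile of scores above 0, over all 12 libraries and 4213 windows, with the repeat as a block that keeps tests within a table (5 residual degrees of freedom). The spread was moderated along its trend with score level. For windows the prior degrees of freedom were infinite, so the spread of each came from the trend, not from its own libraries. P-values were adjusted by Benjamini-Hochberg. The fit was tested on simulated data. These were drawn with independent noise from the fitted model itself, so they do not cover windows that share reads. With 2 libraries against 2, a permutation test cannot go below p = 0.333. Named windows are the 5 members called that moved most each way per mutant and in the same direction in both repeats, the 5 highest in WT, the 3 longest runs, the 3 runs per mutant and direction with the largest called change between places, and 8 known genes. For these a selection is printed, and the windows near the known genes are not reported here. Members and lists were chosen with earlier results of these data known. The groups by shared or repeated words and by copies, and the families, were made after seeing the data.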

Additional observations from a re-analysis of the deposited data

Results flagged for a closer look

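Windows of these runs listed in 1 table only took no part in the tests, and some scored over 2 times the wild-type value of the same repeat. Of the 90 listed only in the table of repeat 1, 9 did so in arid2/3/4, 3 in epcr1/2 and 5 in hda6. Of the 46 listed only in the table of repeat 2, 1 did so in arid2/3/4, 1 in epcr1/2 and 1 in hda6. In nrpd1 and nrpe1 the number was 0 in both tables. These windows have 1 library per genotype, so the differences have no replicate check. Their median score was 72 in arid2/3/4, 98 in epcr1/2, 61 in nrpe1 and 70.5 in hda6, against 115 in WT, in repeat 1.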

How the results depend on the processing

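Of 224 values recomputed for the counts and differences by place, 141 stayed close to the value given and 83 moved, while 351 of 354 recomputed changes of named windows kept their call, 3 lost it (those of MIR2933a in nrpe1) and 0 changed sign. With median scaling the share of members lowered was 93.1% in arid2/3/4, 94.1% in epcr1/2 and 14.7% in arid2/3/4 against epcr1/2, and the share raised 1.15% in epcr1/2, 4.45% in nrpe1, 4.61% in hda6 and 27.0% in arid2/3/4 against epcr1/2. With quantile normalization 71.8% were lowered in epcr1/2 and 5.27% in arid2/3/4 against epcr1/2, and 3.13%, 11.2%, 7.08% and 12.2% were raised in epcr1/2, nrpe1, hda6 and arid2/3/4 against epcr1/2. Fitting only the groups compared gave 32.9% lowered in arid2/3/4, 9.39% in epcr1/2 and 53.2% in arid2/3/4 against epcr1/2, with 2.97%, 0.329% and 9.88% raised in epcr1/2, nrpe1 and arid2/3/4 against epcr1/2. The smaller pseudocount gave 10.9% lowered in epcr1/2 and 17.0% in arid2/3/4 against epcr1/2, with 0.0% raised in nrpe1 and 2.14% in arid2/3/4 against epcr1/2. Above the lower quartile of scores 8.03%, 0.277% and 3.88% were raised in epcr1/2, nrpe1 and hda6. Among 35 mostly single-copy members 62.9% were lowered in epcr1/2 and 5.71% in arid2/3/4 against epcr1/2, and 0.0% were raised in arid2/3/4, 2.86% in epcr1/2, 0.0% in nrpe1 and 0.0% in hda6. The cause of these shifts was not tested.

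Leaving out 1 library at a time gave 35.7% to 60.3% lowered in arid2/3/4, 9.56% to 27.0% in epcr1/2, 86.8% to 93.1% in nrpe1, 35.6% to 75.8% in hda6 and 3.95% to 26.4% in arid2/3/4 against epcr1/2. The shares raised ran from 2.97% to 4.61% in arid2/3/4, 2.80% to 6.75% in epcr1/2, 0.0% to 0.659% in nrpe1, 0.988% to 2.97% in hda6 and 0.988% to 4.45% in arid2/3/4 against epcr1/2. A lone library was then assumed to vary like the other groups.

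The median change inside minus that at edges was -0.03 in arid2/3/4, -0.02 in epcr1/2, -0.10 in nrpe1 and -0.07 in hda6 on the log2 scale. In arid2/3/4 it was 0.00 with the smaller pseudocount, 0.03 above the lower quartile, -0.04 with median scaling, -0.12 with quantile normalization, -0.04 with runs from windows in both tables and -0.05 with 1 run per sequence family, an alternative chosen after seeing the data. In epcr1/2 it was -0.12 with quantile normalization and 0.04 with 1 run per family, in nrpe1 -0.32 with runs from both tables, and in hda6 -0.16 with quantile normalization, -0.09 with runs from both tables and -0.05 with 1 run per family. Mostly single-copy members included 1 inside window, too few for this difference. Leaving out 1 library gave -0.06 to 0.02 in epcr1/2 and -0.21 to 0.01 in nrpe1.

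Runs whose inside-minus-edge difference changed numbered 10 in arid2/3/4, 4 in epcr1/2 and 2 in hda6 with the smaller pseudocount, 12 in arid2/3/4 and 20 in epcr1/2 with median scaling, and 35, 43 and 17 in arid2/3/4, epcr1/2 and hda6 with quantile normalization. With only the groups compared they were 0 in epcr1/2, 39 in nrpe1 and 0 in hda6, and with runs from windows in both tables they were 4 in epcr1/2 and 2 in hda6. Leaving out 1 library gave 3 to 21 in arid2/3/4, 3 to 21 in epcr1/2, 47 to 61 in nrpe1 and 0 to 28 in hda6. The low-score filter and the single-copy limit were not run for these counts.

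The repeat numbers were not shown to pair the libraries, since the correlation of deviations between same-numbered libraries ran from -0.16 to 0.64 with a median of 0.15. With no replicate block 55.7% of members were lowered in arid2/3/4, 18.3% in epcr1/2, 90.6% in nrpe1, 69.2% in hda6 and 25.7% in arid2/3/4 against epcr1/2, and the run count in hda6 was 0 in place of 4.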

Other observations

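By chromosome, the share of members lowered in arid2/3/4 was 61.3% on chromosome 1, 61.0% on chromosome 2, 44.5% on chromosome 3, 40.3% on chromosome 4 and 59.7% on chromosome 5. In epcr1/2 the shares were 24.6%, 9.0%, 20.9%, 21.0% and 16.7%, and in nrpe1 92.7%, 84.0%, 90.9%, 87.1% and 94.4%. Among all windows 28.9% fell in arid2/3/4, 14.8% in epcr1/2 and 44.3% in nrpe1. Among the families of runs with shared sequence, a family of 8 runs on 3 chromosomes had all 22 of its members lowered in arid2/3/4 and 2 in epcr1/2. The shares of all windows lowered in these mutants were 28.9% and 14.8%. A family of 6 runs had 0 of 14 members lowered and 6 raised in arid2/3/4, and 1 lowered and 6 raised in epcr1/2, where 38.7% and 52.2% of all windows rose. Members of a family can share reads, so these counts describe sequences and not independent windows.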
